A study of Mus musculus with 3 samples.

Results

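Hepcidin and 9 further genes of iron homeostasis (Hamp, Hamp2, Tfr2, Tfrc, Trf, Hfe, Bmp6, Slc40a1, Fth1 and Cp) were read from a microarray of mouse liver in which the nuclear receptor gene Hnf4a was targeted with a Cre-carrying virus. A gene was read where a probe set, the group of probes summarised into one value, listed it as its single gene, which held for 9 of the 10 genes, through 24 probe sets of the 34945 with 1 gene. They are 9 of 18193 genes with such a probe set. The only probe set that lists Trf, the gene of the plasma iron carrier transferrin, also lists another gene, so no value is given for Trf. Each gene is represented by its brightest probe set and the others are shown beside it.

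The livers came from 3-month-old mice of mixed strain, taken 1 week after an intraperitoneal dose of 400 microL of adeno-associated virus of serotype 8. The control virus, MUP-EGFP-AAV8, was given to 2 mice and the Cre virus, MUP-iCre-AAV8, to 1 mouse, and each liver gave 1 array of total RNA. The series describes floxed Hnf4a mice under both viruses, but the sample labels name wild type for the controls and HNF4alpha knockout for the Cre liver, so virus, Cre and any prior genotype difference cannot be told apart. Hnf4a itself read 11.91 and 11.96 under control virus and 11.38 under Cre virus, and its 4 probe sets all put the Cre liver below both controls, with differences from -0.55 to -1.18; whether their probes lie within the floxed part was not tested. The hepatocyte marker Alb was bright in all 3 livers (14.75, 14.72 and 14.62). Of 8 fitted hepatocyte markers, however, 4 fell (Asgr1, Apoc3, Tat and Fah, from -5.02 to -0.69), against 5.21% of all fitted genes. The other 4 did not pass (Alb, Ttr, Apoa1 and Cps1). The list median was -0.40, against 0.09 over all fitted genes. Whole liver was used: a change in the number of cells of a type and a change in RNA per cell cannot be told apart either.

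Iron balance is set by hepcidin, a peptide hormone that hepatocytes secrete from the Hamp gene. Hepcidin binds ferroportin, the iron exporter encoded by Slc40a1, and causes it to be degraded, so that less iron enters the plasma. Endothelial cells of the liver supply the ligand BMP6, which acts through BMP receptors and SMAD factors to raise Hamp transcription, while the membrane proteins HFE and transferrin receptor 2 tune this signal to circulating iron and inflammation raises Hamp through STAT3.

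Mice carry a second hepcidin gene, Hamp2, next to Hamp. The brightest probe sets of these 2 genes gave different results, and the other Hamp2 probe set did not rise. The upstream sequences are shown first as description, and any link between them and the array values was not tested. Both genes lie on the minus strand of chromosome 7 (GRCm38.p6), Hamp at chr7:30942368-30944029 and Hamp2 at chr7:30922372-30924181, with 18186 bases between them. The 250 bases before the annotated start of each, from RefSeq, occupy chr7:30944030-30944279 for Hamp and chr7:30924182-30924431 for Hamp2. They are written 5′ to 3′ on the minus strand, with the aligned BMP responsive bases and the STAT motif in capitals.
Hamp: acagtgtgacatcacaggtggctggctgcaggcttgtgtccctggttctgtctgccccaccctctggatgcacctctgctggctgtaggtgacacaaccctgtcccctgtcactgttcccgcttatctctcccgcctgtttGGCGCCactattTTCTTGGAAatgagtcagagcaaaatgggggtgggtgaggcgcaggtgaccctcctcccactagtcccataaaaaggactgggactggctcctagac
Hamp2: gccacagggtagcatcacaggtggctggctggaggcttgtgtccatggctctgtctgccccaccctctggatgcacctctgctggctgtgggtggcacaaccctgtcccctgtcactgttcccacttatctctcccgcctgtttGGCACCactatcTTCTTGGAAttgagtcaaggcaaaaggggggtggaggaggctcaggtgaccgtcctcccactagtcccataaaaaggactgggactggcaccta

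Over 247 aligned bases the upstream stretches were identical at 227, or 91.9%, and differed at 20. The BMP responsive motif GGCGCC lay from -109 to -104 relative to the Hamp start. The aligned Hamp2 bases, from -106 to -101, read GGCACC, which differs by G4A (position counted from 1 at the first base of the motif, Hamp base first). The STAT motif TTCNNNGAA matched in both genes with the same letters, TTCTTGGAA, from -97 to -89 in Hamp and from -94 to -86 in Hamp2. Motifs were searched on both strands in the 250 bases before each annotated start only, and of 32851 such stretches 9.59% held GGCGCC and 7.02% held TTCNNNGAA. Among 13 windows of 8 iron genes, GGCGCC was also found in 1 of the Tfrc windows. The HNF4 motif CAAAGNNCA, which 5.49% of all windows hold, was in none of the 13. The C/EBP motif TTGCNNAA, held by 9.56% of all windows, matched in 1 window of Cp and 1 of Fth1, and the E-box CACGTG, held by 6.02%, matched upstream of Bmp6. These matches describe letters and not binding.

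**Figure D1:**
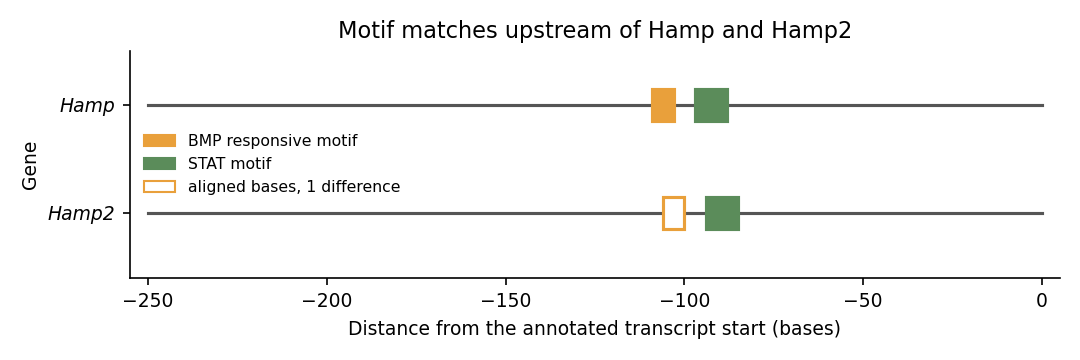
Map of the 250 bases before the annotated starts of Hamp (top) and Hamp2 (bottom), with distance from the start in bases on the x axis. Filled boxes are exact matches to the BMP responsive and STAT motifs, and the open box marks the Hamp2 bases aligned with the Hamp BMP responsive motif, which differ from it at 1 base.

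On its brightest probe set Hamp2 was 10.98-fold higher in the Cre liver. Probe set 1436643_x_at gave 8.83 and 8.996 under control virus and 12.37 under Cre virus (log2 scale throughout). The controls lay close together and the Cre liver far above both. The difference from the control mean was 3.46 ± 0.13 (limma's moderated standard error, SE; adjusted p = 0.0014 over 12735 fitted genes), and it was the 21st largest rise among them. Of all fitted genes 3.67% were at least 2-fold above both controls, and Hamp2 was the one iron gene that met this mark. The second Hamp2 probe set, 1456289_at, was at 3.47, 3.63 and 3.37. These values lie below 3.772, the level under which genes were called dim and left out of the fit. Of the Hamp2 probe sets, 1456289_at is the one whose name carries no mark of shared probes. It did not show the rise (-0.18 from the control mean), and whether it can detect Hamp2 RNA was not tested. The rise therefore rests on 1 probe set.

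Hamp did not pass the test (adjusted p = 0.2427 in limma, and between 0.1573 and 0.3229 in 9 other settings). Probe set 1419196_at gave 11.87 and 12.62 under control virus and 12.93 under Cre virus, and probe set 1419197_x_at gave 11.72, 12.44 and 12.82. The Cre liver was above both controls with either probe set. It was 1.05 above control 1 but 0.31 above control 2, and the controls themselves differed by 0.74, a gap reached or exceeded by 1.82% of fitted genes. The difference from the control mean was 0.68 ± 0.33 SE, with a 95% interval from -0.21 to 1.57. That interval lies wholly below the Hamp2 interval, from 3.11 to 3.81.

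The _x_at suffix marks probe sets in which some probes can also match other transcripts, and Hamp and Hamp2 are close in sequence. How much Hamp RNA the Hamp2 probe set reads was not tested, since probe sequences were not used here. Between the controls the Hamp probe sets differed by 0.74 and 0.72 and the Hamp2 probe set by 0.16. Between Cre liver and control mean the differences were 0.68 and 0.74 for Hamp and 3.46 for Hamp2.

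**Figure D2:**
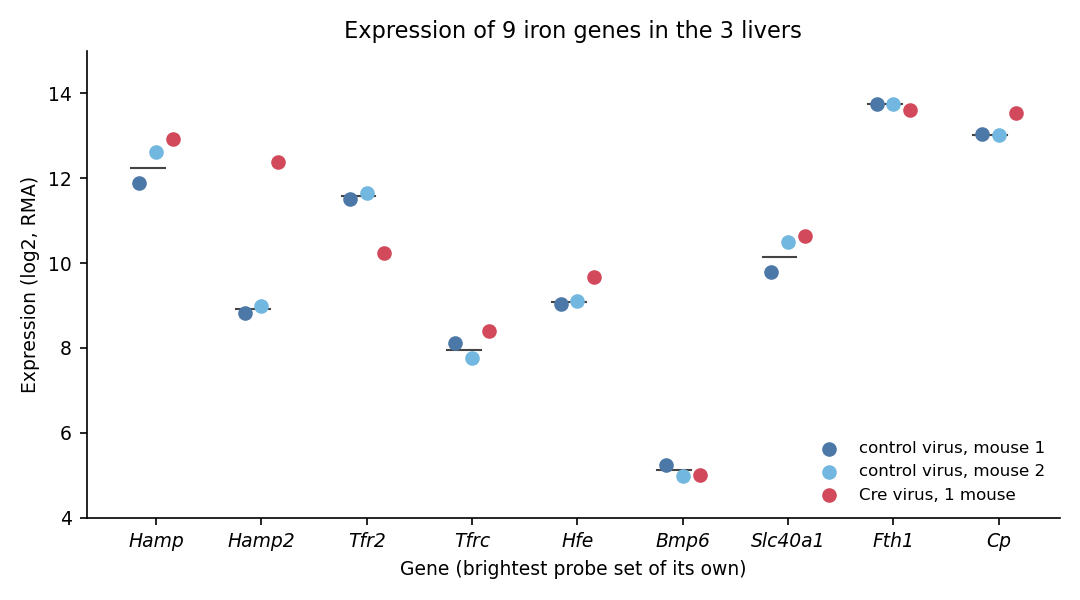
Log2 expression of 9 iron genes in the 3 livers (y axis), 1 column per gene and 1 point per liver, with a line at the mean of the 2 control livers. Hamp2 at 12.37 and Tfr2 at 10.24 in the Cre liver stand clear of their controls, while the controls of Hamp and Slc40a1 are themselves spread; heights of different genes come from different probes and are not comparable.

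Among the signals upstream of hepcidin, Tfr2 fell. It encodes transferrin receptor 2, a hepatocyte sensor of iron-loaded transferrin that takes part in raising hepcidin. Probe set 1459994_x_at gave 11.50 and 11.65 under control virus and 10.24 under Cre virus, which is 2.53-fold lower (-1.34 ± 0.12 SE; adjusted p = 0.0097 in limma). The second probe set, 1425381_a_at, gave 11.21, 11.09 and 9.84, a difference of -1.30. The Cre liver lay below both controls with either probe set, and it lay outside both controls in 83.4% of all fitted genes. Tfr2 was the one iron gene at least 2-fold below both controls, against 3.72% of fitted genes. It passed the test in the other 8 settings that could read it.

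Hfe, whose product pairs with transferrin receptors and is mutated in hereditary hemochromatosis, was at 9.05 and 9.10 under control virus and 9.68 under Cre virus on probe set 1422645_at. Its second probe set, 1450702_at, gave 6.13, 5.97 and 6.90. Both put the Cre liver above the controls, by 0.61 ± 0.12 SE and 0.86 ± 0.17 SE. Hfe missed the threshold by a small margin (adjusted p = 0.0505 in limma) and passed it in 5 of 9 other settings, with adjusted p from 0.0264 to 0.0855.

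Bmp6, the endothelial BMP ligand, was at 5.25 and 4.99 under control virus and 5.01 under Cre virus, so the Cre value lay between the controls (-0.12 ± 0.20 SE, adjusted p = 0.7247 in limma; 0.02 against control 2 alone). Its 95% interval ran from -0.655 to 0.42. Of 12 markers of liver endothelial cells, 0 passed the limma test after adjustment, where 11.9% of all fitted genes did, and 2 had an unadjusted p under 0.05, where 31.2% of all fitted genes did (the largest difference was 0.71, in Pecam1), and their mean level was 7.10 and 7.22 under control virus and 7.35 under Cre virus.

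Transferrin receptor 1, the gene Tfrc, brings transferrin-bound iron into cells and is a gene whose transcript is stabilised when cells lack iron. Its bright probe set, 1452661_at, gave 8.12 and 7.77 under control virus and 8.40 under Cre virus. The Cre liver was above both, by 0.46 ± 0.20 SE from the control mean, without passing (adjusted p = 0.2084 in limma; 95% interval -0.08 to 0.99). The probe sets 1422966_a_at and 1422967_a_at, between 2.36 and 2.92, and 3 array control probe sets for Tfrc, between 2.00 and 2.82, were dim in every liver and did not read it. Red cell precursors are rich in Tfrc. Of 13 erythroid markers 4 were fitted. Alas2 (8.61, 8.92 and 5.49) and Klf1 (6.36, 6.24 and 4.39) fell while Tfrc did not, where 5.21% of all fitted genes fell. Epor (-0.11) and Ermap (-0.30) did not pass. The part of red cell precursors in the Tfrc level was not tested.

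Slc40a1, which encodes ferroportin, was at 9.79 and 10.50 under control virus and 10.64 under Cre virus on probe set 1417061_at. On probe set 1448566_at it was at 6.499, 7.57 and 7.38, so here the Cre liver lay between the controls. The brightest probe set gave 0.49 ± 0.32 SE, without passing (adjusted p = 0.359 in limma; 0.85 against control 1 and 0.14 against control 2). The controls differed by 0.71, a gap that 2.03% of fitted genes reach. Kupffer cells, the liver macrophages that recycle iron from red cells, are rich in ferroportin. Control 2 was above control 1 in 10 of 12 liver endothelial markers (median difference 0.13) and in 4 of 8 hepatocyte markers (median -0.01). Control 2 was also above control 1 in 22 of 26 fitted regulators of hepcidin (median 0.16) and 8 of 11 stellate cell markers (median 0.08). Among acute phase genes it was above in 7 of 16 (median -0.01). The share over all fitted genes was not counted. For Kupffer cells, 10 of 12 markers were higher in control 2, with a median difference of 0.52. The mean level of these 12 markers was 6.20 and 6.71 under control virus and 7.16 under Cre virus, with 11 of 12 above both controls, against 49.7% of all fitted genes, and 1, Marco, past the test, against 11.9% (1.88 ± 0.16 SE, while its other probe set lay below both controls). Their part in the Slc40a1 and Hamp values was not tested. Fitted genes were also ranked by how near their pair of Cre-minus-control differences lay to that of Hamp, by Euclidean distance. With predicted genes and clones left out, the nearest were Sdccag8, Plin5, Zbtb39, Ctss and Kdm6a, at distances from 0.0256 to 0.0705.

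Cp rose. It encodes ceruloplasmin, a copper-bearing ferroxidase of plasma that oxidises exported iron so that transferrin can bind it. Probe set 1417494_a_at gave 13.03 and 13.02 under control virus and 13.53 under Cre virus, which is 1.42-fold higher (0.51 ± 0.08 SE; adjusted p = 0.0355 in limma). Of its 8 probe sets, 7 put the Cre liver above both controls, by 0.50 to 0.80, and 1, 1417497_at, placed it between them (4.05, 4.30 and 4.22). In the test over probe sets, 1455393_at, at 11.88, 11.83 and 12.55, passed, while 1417494_a_at and the other Cp probe sets did not. The call was lost in 3 of 9 other settings, with adjusted p up to 0.1095 without an intensity trend.

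Fth1, the ferritin heavy chain that oxidises and stores iron inside cells, was slightly lower under Cre virus without passing. Probe set 1427021_s_at gave 13.74 in each control and 13.61 in the Cre liver, and 1448771_a_at gave 13.27, 13.27 and 13.14. The Cre liver was below both controls on either probe set (-0.14 ± 0.08 SE on the brighter, adjusted p = 0.3147 in limma; 95% interval -0.35 to 0.08).

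Of the 9 iron genes fitted, 2 rose, 1 fell and 6 did not pass, where 6.71% of all fitted genes rose, 5.21% fell and 11.9% passed in either direction. The Cre liver lay outside both controls in 8 of the 9, close to the share over all fitted genes, 83.4%. The median difference was 0.49 over the 9 genes and 0.09 over all genes fitted. Tested probe set by probe set, 4 of the 22 fitted passed (1 of Hamp2, 2 of Tfr2 and 1 of Cp), against 4.29% of all 31526. That fit kept probe sets with a mean of at least 3.168, the 30th percentile over probe sets, so the dim Hamp2 probe set 1456289_at is among the 22. Without a filter, or without an intensity trend, 1 of them passed.

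**Figure D3:**
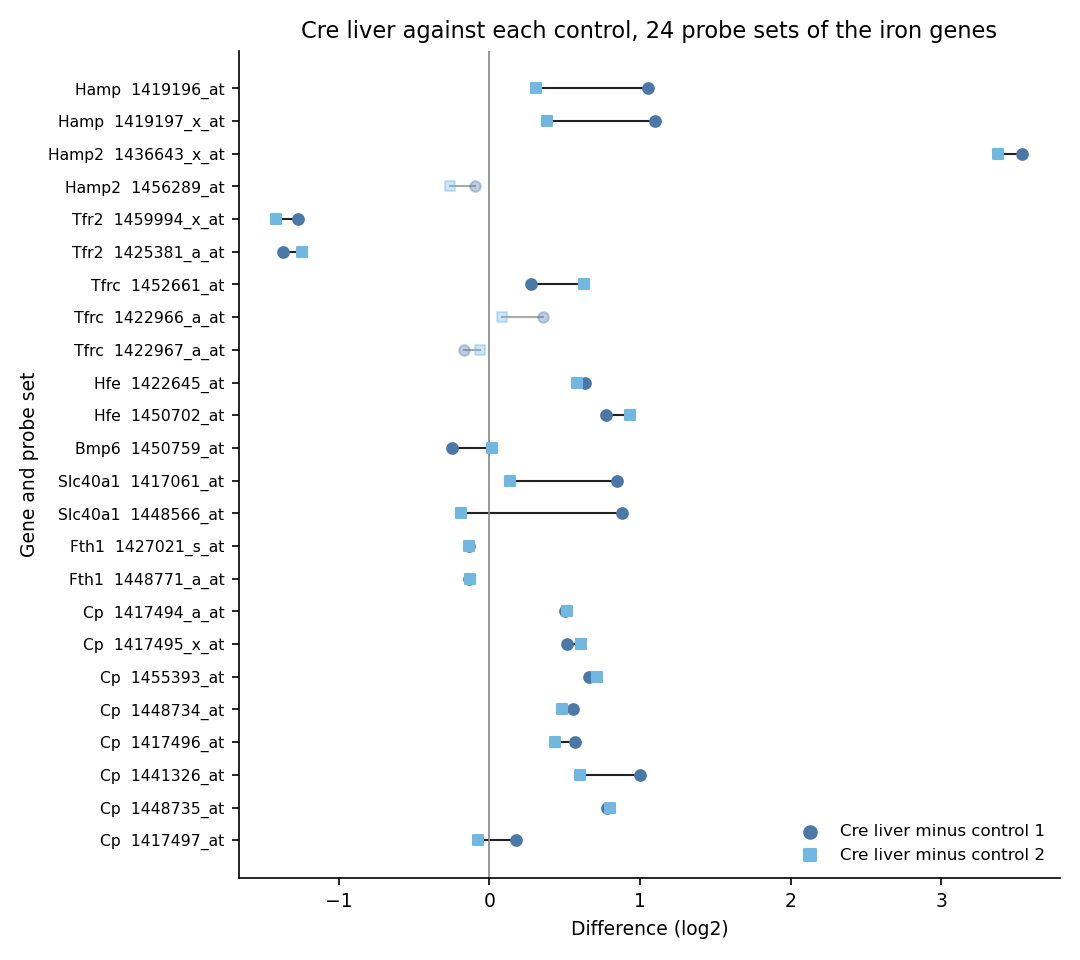
Cre liver minus control 1 (circles) and minus control 2 (squares), in log2 units on the x axis, for the 24 probe sets of 9 iron genes; faded symbols are probe sets below 3.772 in every liver. Both Tfr2 probe sets lie left of 0 and 1 of the Hamp2 probe sets far to the right, while the Slc40a1 probe set 1448566_at and Bmp6 cross 0.

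**Figure D4:**
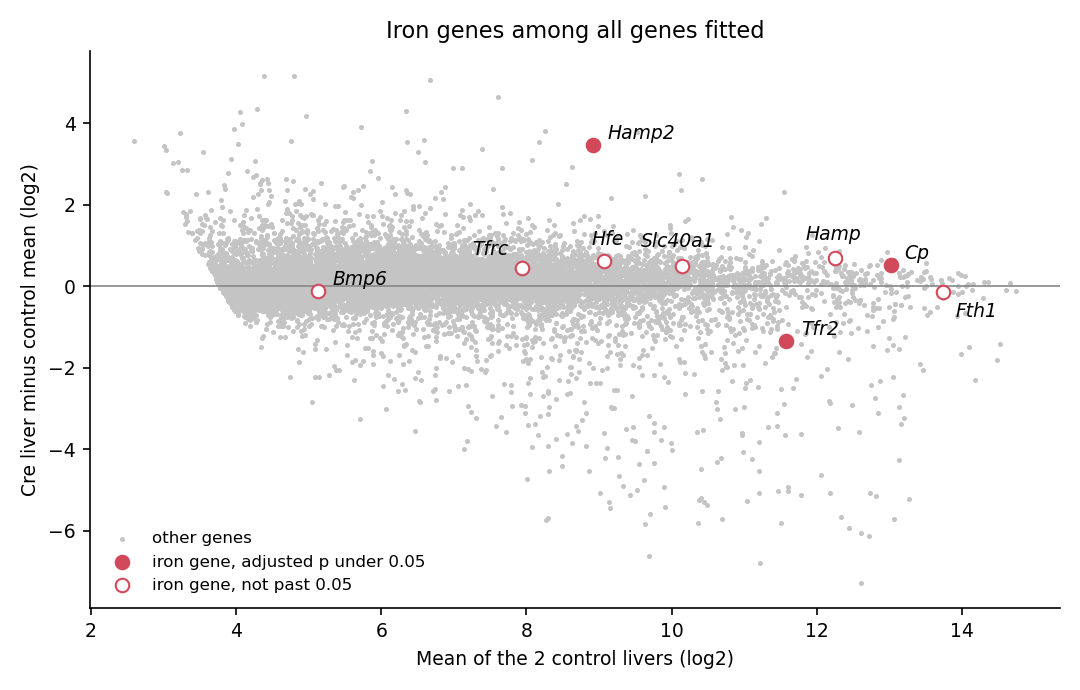
Difference between the Cre liver and the control mean (y axis, log2) against the control mean (x axis, log2) for 12735 fitted genes (grey), with 9 iron genes in red, filled where the adjusted p was under 0.05. Hamp2 at 3.46 and Tfr2 at -1.34 are the iron genes farthest from 0, and many other genes lie farther still.

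The number of arrays limits the precision, since the Cre side of each comparison is a single liver that was assumed to vary like the controls. The control arrays correlated with r = 0.9925 (Pearson, across probe sets rather than replicates), and the Cre array with r = 0.9701 and 0.9719 against control 1 and control 2.

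Of 28 regulators of hepcidin 26 were fitted, and 2 rose and 0 fell, against 11.9% of all fitted genes passing. An unadjusted p under 0.05 was held by 10, against 31.2% of all fitted genes, and the median difference was 0.24, against 0.09 over all. Id1, a transcriptional inhibitor that BMP and SMAD signalling induces, was at 5.37 and 5.98 under control virus and 8.03 under Cre virus (2.35 ± 0.30 SE, adjusted p = 0.0213 in limma). Fgl1, a secreted liver protein described as a suppressor of hepcidin, was at 10.04, 10.21 and 12.47 (2.35 ± 0.13 SE, adjusted p = 0.003 in limma). Both lay clear of their controls, and both passed in each other setting that read them.

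Other parts of the BMP pathway did not pass. Hjv, the BMP coreceptor hemojuvelin, was at 7.88, 8.04 and 7.97, between its controls. Tmprss6, the protease that lowers hepcidin by cleaving hemojuvelin, was at 10.99, 10.97 and 10.66 (-0.32 ± 0.10 SE, adjusted p = 0.124). The signal carriers Smad1 (0.655 ± 0.16 SE) and Smad5 (0.55 ± 0.14 SE) were above both controls with adjusted p = 0.0782 and 0.0881 in limma. The feedback inhibitor Smad7, like Id1 a BMP target, was at 6.44, 6.94 and 6.79, between its controls on this probe set and just above both on its other one. Id2, a relative of Id1, had the next largest difference of the list, 0.75, without passing. Atoh8, another BMP target, was at 0.40 ± 0.20 SE, and Creb3l3, a liver transcription factor, at -0.55 ± 0.13 SE (adjusted p = 0.0736 in limma).

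Of 21 genes for the transport and scavenging of iron and heme iron, 18 were fitted, and 2 rose and 2 fell, against 6.71% and 5.21% of all fitted genes. Slc48a1, which moves heme out of endosomes and lysosomes, was at 7.33, 7.35 and 8.70 (1.36 ± 0.13 SE, adjusted p = 0.0124 in limma), and its second probe set gave 1.46. Hp, haptoglobin, which captures free hemoglobin, was at 12.99, 12.95 and 13.82 (0.85 ± 0.08 SE). Hpx, hemopexin, which captures free heme, went the other way, from 13.56 and 13.48 to 12.81 (-0.71 ± 0.09 SE). Slc39a8, a metal importer, was at 7.91, 8.09 and 7.19 (-0.81 ± 0.15 SE, adjusted p = 0.0469) and passed in 5 of 9 other settings. Its relative Slc39a14, the main route of plasma iron that is not bound to transferrin into hepatocytes, was at 8.48, 8.73 and 8.01 without passing (-0.59 ± 0.16 SE). Scara5, a ferritin receptor, had the lowest difference of the list, -1.49 ± 0.43 SE, without passing, and its controls differed by 0.97. The list median was 0.06, and it turned negative against control 2 alone (-0.05), after quantile normalization (-0.06), with a stricter filter (-0.03) and without probe sets of shared probes (-0.13).

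Of 16 genes of iron storage, sensing and iron-sulfur cluster assembly, 12 were fitted, and 2 fell and 0 rose, against 5.21% and 6.71% of all fitted genes, and 5 had an unadjusted p under 0.05, against 31.2%. The median was 0.01, and it ran from -0.0914 to 0.1311 over the other settings. Bdh2, a cytosolic dehydrogenase linked to siderophore synthesis, was at 7.31 and 7.30 under control virus and 4.08 under Cre virus (-3.23 ± 0.15 SE, adjusted p = 0.0023 in limma). It ended near 3.772, the level called dim, so the size of its fall is uncertain. Glrx5, a mitochondrial glutaredoxin needed for iron-sulfur clusters, was at 11.40, 11.39 and 10.54 (-0.85 ± 0.10 SE, adjusted p = 0.0178). The iron regulatory proteins, which control Tfrc and ferritin transcripts, did not pass: Aco1 was at 11.15, 11.48 and 10.94 and Ireb2 at 7.86, 8.32 and 8.003. Ncoa4, which delivers ferritin for breakdown, was at 9.70, 9.87 and 9.18 (-0.60 ± 0.13 SE, adjusted p = 0.064 in limma).

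Acute phase genes, which share STAT3 signalling with Hamp, went both ways. Of 16 fitted, 3 rose (Orm3, Socs3 and Lbp), against 6.71% of all fitted genes. Another 6 fell (Saa1, Saa2, Saa4, Crp, Apcs and Itih4), against 5.21%. The median was -0.17, against 0.09 over all. The serum amyloid gene Saa1 went from 9.30 and 9.02 to 6.18 (-2.98 ± 0.17 SE), and Crp, the gene of C-reactive protein, from 12.15 and 12.14 to 10.10 (-2.04 ± 0.10 SE). Socs3, a feedback inhibitor that STAT3 induces, went the other way, from 5.87 and 6.09 to 7.83 (1.84 ± 0.17 SE) on its brightest probe set, as did Lbp, which binds bacterial lipopolysaccharide (1.29 ± 0.18 SE). The Socs3 probe set with no suffix for shared probes gave 0.60, and the Socs3 call was lost in 1 of 9 other settings (adjusted p = 0.1608 in limma). The list held large falls and large rises side by side. Stat3 itself was at 8.67, 8.90 and 9.27 without passing (0.48 ± 0.15 SE). Of 15 targets of hypoxia-inducible factors, which also act on Tfrc and Cp, 12 were fitted. Ndrg1 rose (0.91 ± 0.13 SE), Ldha fell (-0.68 ± 0.10 SE), and the median was -0.28. These were the only genes of the 12 to pass, against 11.9% of all fitted genes.

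**Figure D5:**
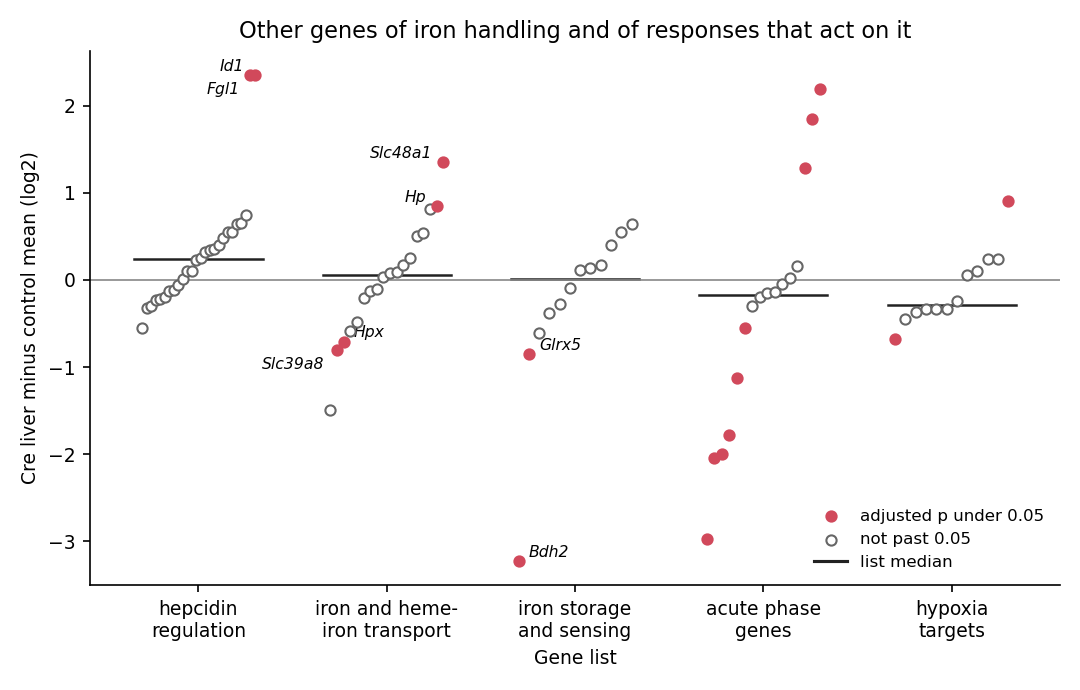
Cre liver minus control mean (y axis, log2) for the fitted genes of 5 lists (x axis), each point 1 gene in order of size, filled where the adjusted p was under 0.05, with a line at the list median. Id1 and Fgl1 at 2.35 and Bdh2 at -3.23 lie farthest from 0 among the first 3 lists, whose medians are 0.24, 0.06 and 0.01.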

How the data were processed

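Values are log2 expression per probe set as deposited, which the authors obtained by RMA in Partek 6.5, according to the submitters' processing notes; base 2 was inferred from their range. Of 45101 probe sets, 64 were array controls, 34945 listed 1 gene, 932 several and 9160 none; 34741 symbols were updated by Entrez ID through a GRCm38.p6 gene table, and 8 of the 10 iron genes had a RefSeq promoter window. The brightest probe set stood for each gene, and genes whose mean over the 3 arrays reached 3.772, the 30th percentile, entered a fit with limma 3.58.1 in R 4.3.3 (lmFit, eBayes with an intensity trend; 1 residual and 3.18 prior degrees of freedom), Cre virus against control virus, two-sided. p-values were adjusted by Benjamini-Hochberg over all 12735 genes, or over 31526 probe sets, with a threshold of 0.05. The code was checked on simulated data. Because RMA equalises the arrays' distributions, a change common to the whole transcriptome would not show.

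By their titles the control samples are biological replicates. The iron genes and lists were chosen with earlier results of these data known. Named were all iron genes, Hnf4a, up to 8 called genes of each list by absolute difference, up to 4 others with the largest difference, any gene a list's account needs, and the 5 genes nearest to Hamp. Predicted genes and clones were left out when the 5 nearest were taken. Figures used matplotlib 3.10.9 in Python 3.11.15.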

Additional observations from a re-analysis of the deposited data

How the results depend on the processing

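The rise of Hamp2 and the fall of Tfr2 kept their direction and passed in the 8 other tested settings that read them; with probe sets ending in _s_at, _x_at or _a_at left out, neither could be read. Averaging both Hamp2 probe sets, of which 1 is dim, gave 1.64. Cp missed the threshold without a trend (0.1095), without a filter (0.0657) and as the mean of its probe sets (0.0556). Hamp, Tfrc, Bmp6, Slc40a1 and Fth1 passed in none of the settings run, and Bmp6 changed sign, with 0.0157 without control 1 and -0.2468 without control 2. With 1 control left out no test is possible: Hamp then lay between 0.31 and 1.05. The iron genes passing numbered 3, and 1 (Cp) without the suffixed probe sets; their probe sets passing numbered 4, and 1 without a filter or trend. All genes passing numbered 1518, with 955 unfiltered, 923 without suffixed probe sets, 2783 at a threshold of 0.1 and 347 at 0.01. The listed genes passing numbered 19, with 12, 29 and 5 under the last 3 of these. Genes 2-fold outside both controls numbered 942, with 2201 at 1.5-fold and 415 at 3-fold; against 1 control alone, added after seeing the data, they numbered 1194 to 1244. Counts also went up: more genes, iron genes among them, passed with robust moderation, median centring or quantile normalization. Fewer iron genes passed without a trend or without a filter. The cause of these changes was not tested. No paired analysis was possible because the Cre group holds 1 mouse.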
